A study of Mus musculus with 12 samples.

Results

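The renin-angiotensin and endothelin genes were examined in heart RNA of mice as 8 genes of both systems: Agt, Ace, Agtr1a, Agtrap, Edn1, Ece1, Ednra and Ednrb. They were chosen by symbol, and each symbol matched a single Ensembl identifier among the 38293 genes of both count tables. All 8 had counts in all 12 libraries and were tested in both comparisons. The first table held 3 WT sham and 3 WT IR hearts, in which IR was ligation of the left anterior descending coronary artery for 1 h followed by reperfusion, with harvest 14 days later. The second table held 3 Zeb2 WT IR and 3 Zeb2 cTg IR hearts, all injured and harvested in the same way. Zeb2 cTg mice carry a Zeb2 transgene behind a loxP-flanked stop in the Rosa26 locus and a Cre driven by the αMHC promoter, which is active in cardiomyocytes, and Zeb2 WT mice were their littermates. The genotype labels give C57B/6J for all 12 mice. The mice were 8 to 9 weeks old, and the methods name male mice in one place and both sexes in another. The second table has no sham hearts, so the effect of injury in these littermates was not measured.

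Angiotensinogen, the product of Agt, is cleaved by renin to angiotensin I, and angiotensin-converting enzyme (ACE) turns this into angiotensin II, which acts through the type 1a receptor encoded by Agtr1a. Angiotensin II and endothelin-1 are peptides that constrict vessels, promote growth of cardiomyocytes and fibrosis, and signal through receptors coupled to Gq. Endothelin-1 is released from its precursor by endothelin-converting enzyme 1 and acts on the endothelin receptors type A, found in the heart on cardiomyocytes and smooth muscle, and type B, found mainly on endothelium.

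The renin-angiotensin members lie on 4 chromosomes (GRCm38, GENCODE M21). Agt (ENSMUSG00000031980) is at chr8:124556534-124569706 on the minus strand, Ace (ENSMUSG00000020681) at chr11:105967945-105989964 on the plus strand, Agtr1a (ENSMUSG00000049115) at chr13:30336441-30382867 on the plus strand and Agtrap (ENSMUSG00000029007) at chr4:148077061-148088031 on the minus strand. Of the endothelin members, Edn1 (ENSMUSG00000021367) is at chr13:42301476-42307990 and Ece1 (ENSMUSG00000057530) at chr4:137862237-137965229, both on the plus strand, while Ednra (ENSMUSG00000031616) at chr8:77663031-77724464 and Ednrb (ENSMUSG00000022122) at chr14:103814625-103844402 are on the minus strand. All are protein-coding, and Ednra overlaps 4933431K23Rik on the other strand.

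The peptides themselves are short, and their coding stretches are given here (GENCODE M21, genome build GRCm38). The counts of Agt and Edn1 were made per gene, with merged exons of 1891 and 2139 bases, and not over these stretches. Angiotensin II is encoded by 24 bases in exon 2 of 5 of Agt, on the minus strand at chr8:124564456-124564479, within an open reading frame of 482 codons. Endothelin-1 is encoded by 63 bases in exon 2 of 5 of Edn1, on the plus strand at chr13:42303649-42303711, within an open reading frame of 202 codons. Capitals mark the 4 codons for cysteine, the residues whose disulphide bridges fold the peptide.
Agt, angiotensin II: gaccgcgtatacatccaccccttc
Edn1, endothelin-1: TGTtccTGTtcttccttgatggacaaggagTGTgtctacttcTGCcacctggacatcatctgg

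Counts per library lay between 20215781 and 36816818, of which 60.6% to 73.5% came from the mitochondrial genome. After scaling by edgeR's TMM factors, a level of 1 CPM (the count after scaling to a common library size) stood for 17.2 to 37.8 counts, so that the weakest member, Agt, rested on 6 to 34 counts per library. The sources differ on the tissue, since the methods name the remote zone, the records of the samples the left ventricle and the design text the infarct with its border zone. Zeb2 served as a check of the labels. Its CPM was 54.7, 57.8 and 67.0 in Zeb2 WT IR and 55.5, 56.9 and 58.7 in Zeb2 cTg IR, with a log2 fold change of -0.07 (SE 0.12; edgeR's quasi-likelihood test, adjusted p = 0.75). The groups overlapped and Zeb2 was not higher, and for this reason the text speaks of libraries labelled Zeb2 cTg IR. In WT hearts Zeb2 rose after injury (log2 fold change 0.47, SE 0.12; edgeR, adjusted p = 0.0219). All 20 cardiomyocyte markers were tested in both tables, and their summed level was 51310 to 77500 CPM. Of the atrial markers, Myl7, Sln and Bmp10 had too few counts to be tested in either table, and the same held for all 7 adipocyte markers.

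Per kb of merged exons, the members spanned about an order of magnitude in WT sham hearts. The enzyme gene Ece1 was highest at 6.48 ± 0.420 CPM per kb (mean ± SD, n = 3 here and throughout). Ace followed at 5.15 ± 0.333 and Agtr1a at 4.91 ± 0.640 CPM per kb, and these neighbours overlapped. Agtrap, whose product binds the type 1 receptor and promotes its internalization, stood at 3.60 ± 0.0554 CPM per kb. The endothelin receptor genes came next and overlapped each other, with Ednrb at 2.79 ± 0.239 and Ednra at 2.73 ± 0.217 CPM per kb. The precursor genes were lowest and also overlapped, with Edn1 at 0.660 ± 0.127 and Agt at 0.573 ± 0.0758 CPM per kb. In these hearts the enzymes and receptors were thus measured well above the precursors of both peptides.

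The order was not the same in the other groups. In WT IR, Ace led at 9.29 ± 2.17 CPM per kb, overlapping Ece1 at 6.78 ± 0.192. In Zeb2 WT IR the first places went to Ece1 at 4.91 ± 0.594, Agtr1a at 4.82 ± 0.832 and Ace at 4.82 ± 0.843 CPM per kb, and each overlapped its neighbour. In the libraries labelled Zeb2 cTg IR, Agtr1a took place 5 at 2.70 ± 0.410 CPM per kb, below Agtrap at 3.39 ± 0.290 and Ednra at 3.16 ± 0.583, although its range overlapped those of Agtrap and Ednra above it and of Ednrb below. Edn1 and Agt were lowest in all 4 groups, and apart from WT sham their ranges did not overlap. With the longest transcript as the length, Ednra moved from place 6 to place 4 in WT sham, since its longest transcript of 3625 bases is much shorter than its merged exons of 5476 bases.

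**Figure D1:**
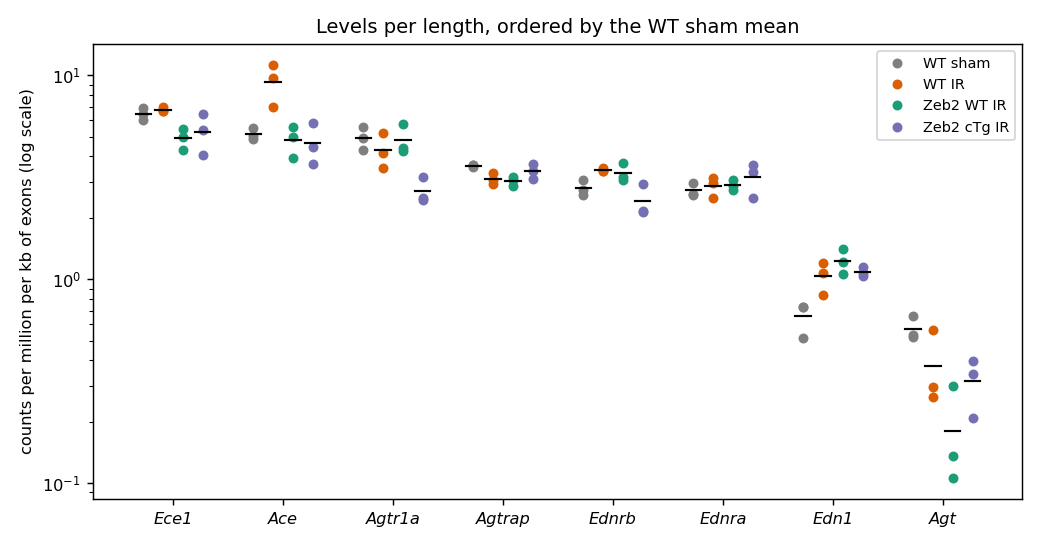
Levels of the 8 genes in CPM per kb of merged exons, on a log scale, with a point per library, a bar at the mean of each group of 3, and genes ordered by the WT sham mean. Agt and Edn1 lie lowest in all 4 groups, and the points of Agtr1a in the libraries labelled Zeb2 cTg IR lie below those of the other groups.

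Injury was assessed by WT IR against WT sham. Ace rose 1.80-fold and Ednrb 1.23-fold, and no member fell by the test. Edn1 had a fold change of 1.57 that missed the threshold, and the transcripts of Ece1 and Ednra differed by less than their spread. Of 13756 genes tested, 20.8% passed an adjusted p of 0.05 (edgeR's quasi-likelihood test), with 11.0% higher and 9.74% lower. For the members the count was 2 of 8, both higher, a share near that of all genes. CPM of the groups did not overlap for 4 members, Ace, Ednrb, Edn1 and Agtrap, as for 39.8% of all genes tested. For each of these 4, an exact permutation test of the mean CPM (two-sided) gave p = 0.1, the smallest that 3 against 3 allows.

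**Figure D2:**
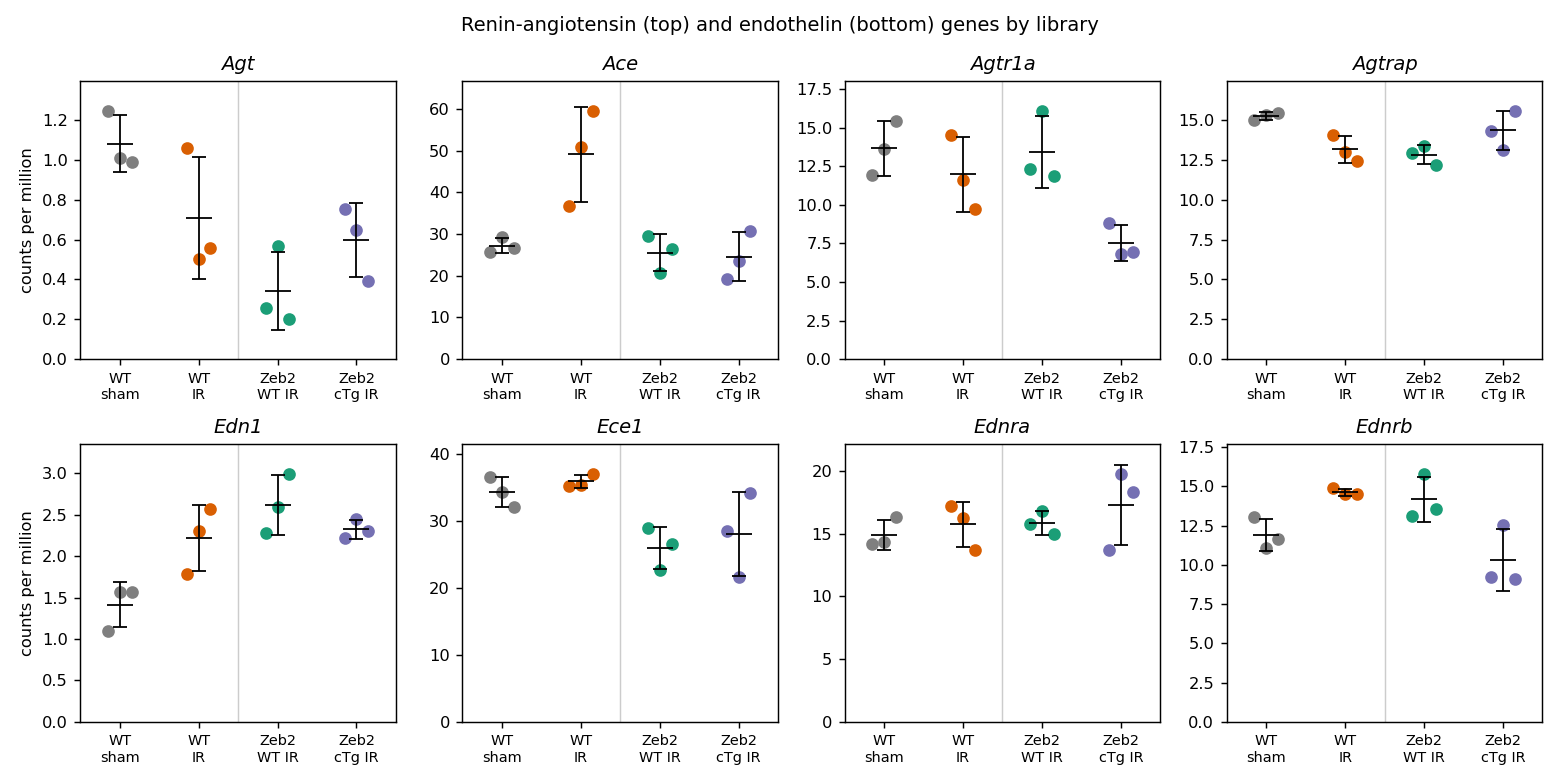
CPM of each gene in all 12 libraries, with renin-angiotensin genes in the top row and endothelin genes in the bottom row, black bars for the mean ± SD of 3, and a grey line between the 2 tables, which were scaled separately. Ace stands above its sham hearts in WT IR and Agtr1a stands below its controls in Zeb2 cTg IR.

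Among the enzymes, Ace had 25.8, 29.2 and 26.8 CPM in WT sham and 36.8, 51.0 and 59.6 CPM in WT IR. Every injured heart was above every sham heart, and the injured hearts were spread far more widely. The log2 fold change was 0.85 (SE 0.15; edgeR's quasi-likelihood test, adjusted p = 0.00797). This call held in all 12 alternative analyses and without each of the 6 libraries, where the log2 fold change lay between 0.69 and 1.01. Ece1 had 36.6, 34.3 and 32.1 CPM in sham and 35.3, 35.4 and 37.1 CPM in injured hearts. These groups overlapped, with a log2 fold change of 0.06 (SE 0.08; edgeR, adjusted p = 0.579). Within each library, the log2 ratio of Ace to Ece1 per length went from -0.33 ± 0.15 in sham to 0.43 ± 0.32 in injured hearts, without overlap. Such ratios were chosen after their values had been seen and are given as descriptions. The antisense genes Gm11651 and Gm13012 overlap Ace and Ece1 on the other strand, and the strand setting of the counting is not given in the sources used here.

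The rise of Ace was accompanied by one of fibroblast markers. Their summed level was 435 to 539 CPM in WT sham and 976, 1420 and 2127 CPM in WT IR replicates 1, 2 and 3, and 12 of 13 tested fibroblast markers rose. Macrophage markers, at 158 to 174 CPM in sham, reached 231, 355 and 427 CPM in the same injured hearts, and 8 of 12 rose. The heart with the lowest Ace, WT IR replicate 1, also had the lowest sums of both lists. Endothelial markers, which stand for the cell type in which ACE is best known, summed to 572 to 607 CPM in sham and 490 to 580 CPM in injured hearts. None of 14 endothelial markers passed in edgeR, with 6 at an unadjusted p under 0.05, 1 called by DESeq2 and 0 by limma-voom. Cardiomyocyte markers summed to 66610 to 73640 CPM in sham and 51310 to 66190 CPM in injured hearts, and 7 of 20 fell. The part of these shifts in the change of Ace was not tested, and in tissue RNA more cells of a type cannot be told apart from more RNA per cell.

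**Figure D3:**
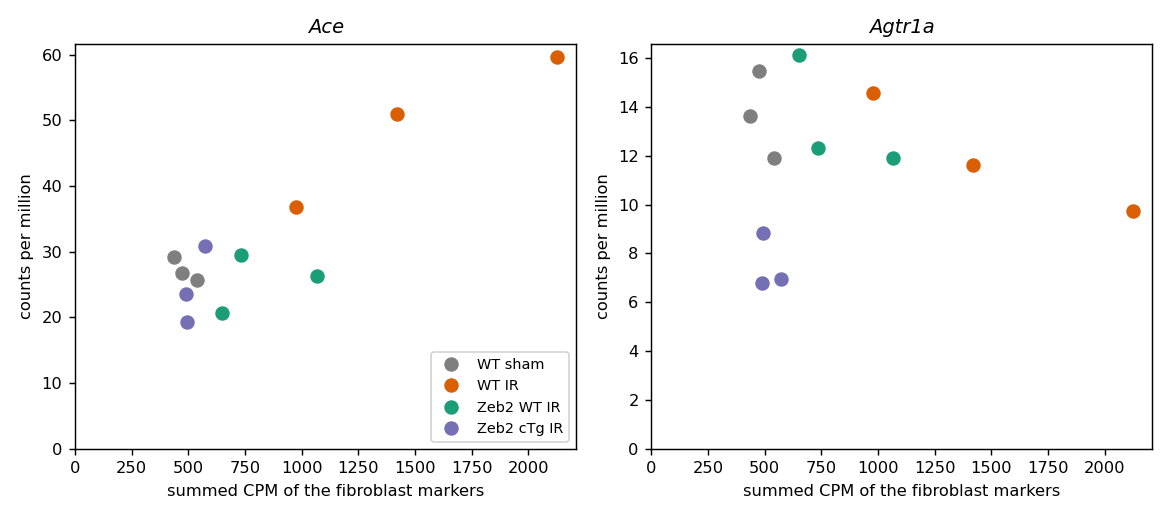
CPM of Ace (left) and Agtr1a (right) against the summed CPM of 14 fibroblast markers, with a point per library and a colour per group. The 3 WT IR libraries are highest for Ace and span 976 to 2127 CPM of fibroblast markers, while the libraries labelled Zeb2 cTg IR are lowest for Agtr1a, at 488 to 574 CPM of those markers.

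Of the precursor genes, Edn1 had 1.10, 1.56 and 1.57 CPM in sham and 1.78, 2.30 and 2.57 CPM in injured hearts, from 29, 51 and 27 against 57, 87 and 69 counts. All injured hearts were above all sham hearts, yet the margin was small. The log2 fold change of 0.65 (SE 0.22) had an adjusted p of 0.0584 in edgeR, and passed in 3 of the 12 alternative analyses and without WT IR replicate 1 (0.78, adjusted p = 0.0116). Agt had 33, 33 and 17 counts in sham and 34, 19 and 15 counts in injured hearts, or 1.25, 1.01 and 0.990 against 1.06, 0.503 and 0.559 CPM. Here the groups overlapped, and the log2 fold change of -0.62 (SE 0.31) did not pass (edgeR, adjusted p = 0.182), though it passed without WT IR replicate 1 (-1.04, adjusted p = 0.0132).

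The receptors differed in their values. Ednrb had 13.05, 11.1 and 11.6 CPM in sham and 14.9, 14.5 and 14.5 CPM in injured hearts. The injured hearts lay close together and all above the sham hearts. Its log2 fold change was 0.30 (SE 0.09; edgeR, adjusted p = 0.0395). This call held in 7 of the 12 alternative analyses. It was lost in DESeq2 (0.29, adjusted p = 0.13) and after a correction for GC content (0.15, adjusted p = 0.273). The same held with the replicate number as a block (0.0529), with both corrections together (0.258) and with all 12 libraries in 1 fit (0.17). The call was also lost without WT IR replicate 2 (adjusted p = 0.11), WT IR replicate 3 (0.0729), WT sham replicate 2 (0.196) or WT sham replicate 3 (0.115).

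Ednra, the receptor gene for type A, had 14.15, 14.35 and 16.3 CPM in sham and 17.25, 16.3 and 13.7 CPM in injured hearts, with overlap and a log2 fold change of 0.08 (SE 0.10; edgeR, adjusted p = 0.595). Agtr1a had 11.9, 13.6 and 15.5 CPM in sham and 14.6, 11.6 and 9.73 CPM in injured hearts. These groups also overlapped, at -0.18 (SE 0.15; edgeR, adjusted p = 0.41), and the gene passed only without WT IR replicate 1 (-0.34, adjusted p = 0.0436). Agtrap had 14.98, 15.3 and 15.4 CPM in sham and 14.1, 13.0 and 12.4 CPM in injured hearts. The sham hearts were nearly equal and all higher, with a log2 fold change of -0.21 (SE 0.08; edgeR, adjusted p = 0.0917) that passed only without WT IR replicate 1 (-0.26, adjusted p = 0.0306). When cardiomyocyte markers set the size factors, the median log2 fold change over all genes was 0.30 in place of 0.01. Agtr1a and Agtrap then stood at 0.08 each, so their sign depended on the scaling.

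**Figure D4:**
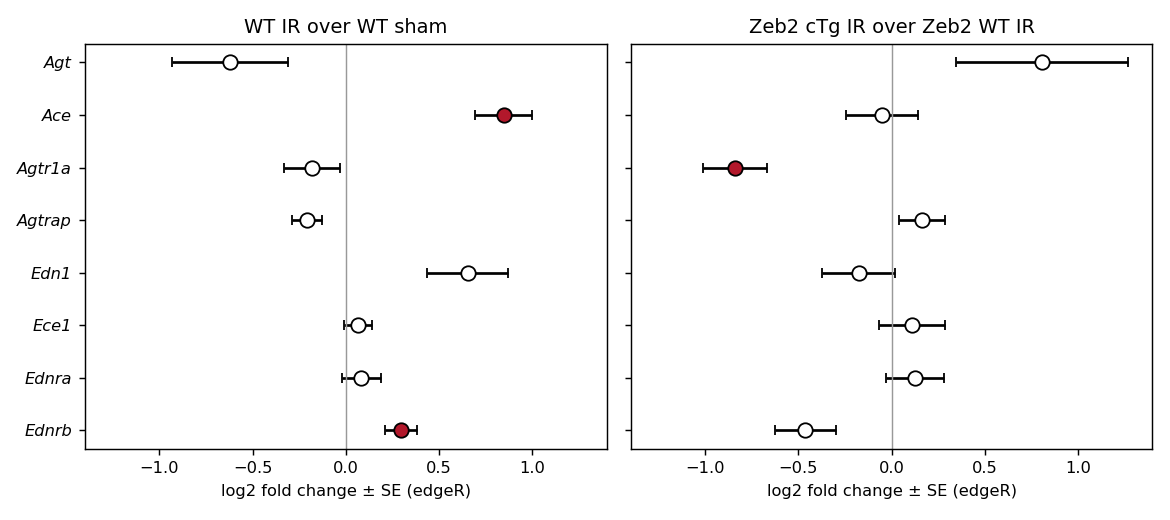
Log2 fold changes with their SE from edgeR for WT IR over WT sham (left) and Zeb2 cTg IR over Zeb2 WT IR (right), with filled points for an adjusted p under 0.05. Ace and Ednrb are filled and higher on the left, Agtr1a is the sole filled point on the right and is lower.

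The promoters of Ace and Ednrb, the members called after injury, are shown because the ZEB family binds the E-box CACCTG and hypoxia-inducible factors bind the core ACGTG. They span 300 bases around the annotated start (RefSeq, build GRCm38.p6), on the plus strand at chr11:105967698-105967997 for Ace, where the first of its 2 listed starts is used, and on the minus strand at chr14:103843652-103843951 for Ednrb. Both strands were searched. The Ednrb window does not reach the outermost start of that gene in GENCODE M21, at chr14:103844402, and the bases around that start were not searched. Neither string occurs in the bases shown of either gene, against 20.2% of 32851 promoters that hold CACCTG and 19.6% that hold ACGTG.
Ace: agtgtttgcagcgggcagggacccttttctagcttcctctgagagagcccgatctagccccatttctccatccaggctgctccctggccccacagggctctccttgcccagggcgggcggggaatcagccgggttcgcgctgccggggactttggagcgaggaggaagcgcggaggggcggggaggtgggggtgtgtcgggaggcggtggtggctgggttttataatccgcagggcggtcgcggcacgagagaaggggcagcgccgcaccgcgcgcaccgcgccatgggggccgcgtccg
Ednrb: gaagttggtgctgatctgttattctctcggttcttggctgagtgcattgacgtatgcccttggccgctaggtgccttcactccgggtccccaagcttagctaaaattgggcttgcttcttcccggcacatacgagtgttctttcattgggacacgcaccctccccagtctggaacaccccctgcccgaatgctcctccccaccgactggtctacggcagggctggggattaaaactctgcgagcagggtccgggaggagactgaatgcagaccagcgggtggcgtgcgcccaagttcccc
The table held promoters of 7 of the 8 members, all but Agtr1a, which was not searched. Of the other promoters searched, ACGTG was found in those of Edn1, Agtrap and 1 of the 4 of Ece1, and CACCTG in none of them.

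The transgene label was assessed by Zeb2 cTg IR against Zeb2 WT IR. Agtr1a was lower, at 0.559 of the control level, and no other member passed. Ednrb had a fold change of 0.726 without overlap of the groups but missed the threshold, and Ace, the gene with the clearest change after injury, had a fold change of 0.965. Of 13018 genes tested, 3.64% passed, with 2.14% higher and 1.51% lower, against 1 of 8 members. Non-overlapping groups were seen for 2 members, Agtr1a and Ednrb, and for 26.2% of all genes tested. For both, the exact permutation test of the mean CPM gave the smallest possible p of 0.1.

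Agtr1a had 12.3, 16.1 and 11.9 CPM in Zeb2 WT IR and 8.84, 6.79 and 6.94 CPM in the libraries labelled Zeb2 cTg IR, from 336, 398 and 357 against 211, 178 and 247 counts. All 3 libraries of the transgene label were below all 3 controls, and the highest of them was 8.84 CPM against a lowest control of 11.9 CPM. The log2 fold change was -0.84 (SE 0.17; edgeR's quasi-likelihood test, adjusted p = 0.032). The gene was called in 11 of 12 alternative analyses, among them DESeq2 (-0.85, adjusted p = 0.0017) and a correction for GC content (-0.72, adjusted p = 0.0304). The call was less stable to single libraries. It was lost without Zeb2 cTg IR replicate 1 (-0.97, adjusted p = 0.0562) or 3 (-0.78, 0.135) and without Zeb2 WT IR replicate 1 (-0.90, 0.0514), 2 (-0.69, 0.0872) or 3 (-0.92, 0.0869), and was kept without Zeb2 cTg IR replicate 2 (-0.78, 0.0217). In these refits 2 libraries stand against 3.

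The log2 ratio of Agtr1a to Agtrap per length within each library was 0.54, 0.88 and 0.57 in Zeb2 WT IR and -0.09, -0.35 and -0.56 in Zeb2 cTg IR, a difference of -0.99 between the means. It restates the lower Agtr1a on a scale free of the library size and is no separate support, and its sign depends on the length used, since with the longest transcript Agtr1a was above Agtrap in Zeb2 cTg IR replicate 1 (4.02 against 3.59 CPM per kb). In the table of sham and injured WT hearts the same log2 ratio was 0.44 ± 0.17 and 0.45 ± 0.20, with overlap.

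Endothelin receptors showed a smaller difference in their balance. Ednrb had 13.1, 15.8 and 13.6 CPM in Zeb2 WT IR and 9.22, 12.6 and 9.13 CPM in Zeb2 cTg IR. The highest library of the transgene label, replicate 2, came close to the lowest control. Its log2 fold change was -0.46 (SE 0.16; edgeR, adjusted p = 0.131), and it passed without Zeb2 cTg IR replicate 2 (-0.64, adjusted p = 0.0177) and when 1 model was fitted to the 12 libraries together (-0.45, adjusted p = 0.0405). Ednra had 15.8, 16.8 and 14.99 CPM in the controls and 13.7, 19.8 and 18.4 CPM in Zeb2 cTg IR. The libraries of the transgene label lay on both sides of the controls, at a log2 fold change of 0.13 (SE 0.16; edgeR, adjusted p = 0.641). The log2 ratio of Ednra to Ednrb per length was -0.10, -0.27 and -0.22 in the controls and 0.21, 0.30 and 0.65 in Zeb2 cTg IR, without overlap. Which receptor was ahead depends on the length used: per kb of merged exons Ednrb was ahead in all controls, whereas with the longest transcript Ednra was ahead there too, at 4.35, 4.64 and 4.14 against 3.20, 3.85 and 3.31 CPM per kb. In WT sham and WT IR that log2 ratio was -0.03 ± 0.19 and -0.26 ± 0.16, and the groups overlapped.

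The enzymes did not pass. Ace had 29.5, 20.7 and 26.3 CPM in Zeb2 WT IR and 19.3, 23.6 and 30.8 CPM in Zeb2 cTg IR, with a log2 fold change of -0.05 (SE 0.19; edgeR, adjusted p = 0.894). Both groups lay below the WT IR hearts (36.8 to 59.6 CPM) and reached to both sides of the WT sham hearts (25.8 to 29.2 CPM). That comparison crosses tables that were scaled separately and was not tested. Ece1 had 28.9, 22.7 and 26.5 CPM against 28.5, 21.6 and 34.2 CPM, a log2 fold change of 0.11 (SE 0.18; edgeR, adjusted p = 0.729). The lowest libraries of both groups were close, and replicate 3 of Zeb2 cTg IR lay above all controls.

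For the precursors, Edn1 had 62, 64 and 90 counts in Zeb2 WT IR and 53, 64 and 82 counts in Zeb2 cTg IR, or 2.27, 2.59 and 3.00 against 2.22, 2.44 and 2.30 CPM (log2 fold change -0.18, SE 0.20; edgeR, adjusted p = 0.603). Agt had 7, 14 and 6 counts against 18, 17 and 14 counts. In CPM, at 0.257, 0.567 and 0.200 against 0.754, 0.649 and 0.393, the groups overlapped, and the log2 fold change of 0.81 (SE 0.46) did not pass (edgeR, adjusted p = 0.311). Agt had 10 or more counts in 1 of the 3 controls and in all 3 libraries of the transgene label, so it passed the filter on low counts through the latter. Agtrap had 12.9, 13.4 and 12.2 CPM against 14.3, 13.1 and 15.6 CPM, with overlap and a log2 fold change of 0.16 (SE 0.13; edgeR, adjusted p = 0.442).

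GC content of the transcripts moved with the fold changes in both tables, in opposite directions. Across genes, Spearman's rho of the log2 fold change with GC content was -0.292 for injury and 0.552 for the transgene label, given as a description, since genes are not independent replicates. In Zeb2 cTg IR the median log2 fold change of all genes climbed from -0.23 in the lowest of 10 equal bins of GC content to 0.49 in the highest. Agtr1a (46.5%), Edn1 (46.1%), Ednra (46.9%) and Ednrb (43.9%) are low in GC content, and Agtrap (53.0%), Ece1 (54.8%), Ace (55.6%) and Agt (56.3%) are high. In the bin from 45.6% to 47.5%, where Agtr1a lies, the median of all genes was -0.12. With GC content as an offset, Agtr1a stayed lower at -0.72, Ednrb stood at -0.30 (adjusted p = 0.135), Ace at -0.32 (adjusted p = 0.274), Ece1 at -0.15 and Agtrap at -0.00084, so that Ece1 and Agtrap changed sign.

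**Figure D5:**
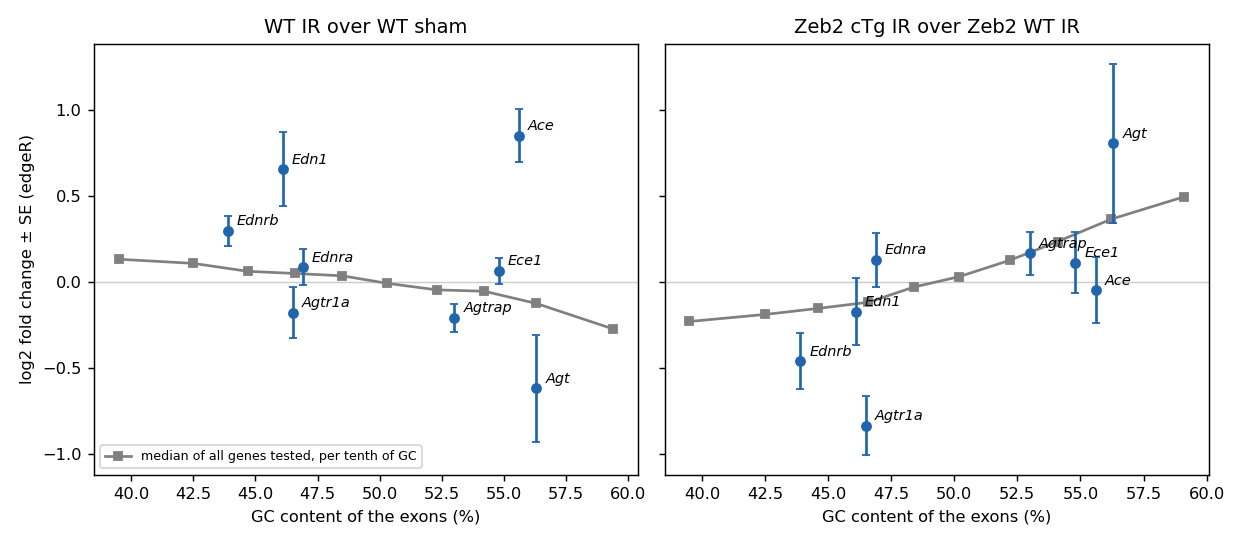
Log2 fold change with SE of each gene against the GC content in percent of its longest transcript, which the axis names exons (blue), with the median of all genes tested in each of 10 bins of GC content (grey), for WT IR over WT sham (left) and Zeb2 cTg IR over Zeb2 WT IR (right). On the right the grey line climbs from -0.23 to 0.49, Agtr1a lies far below it, and Agtrap lies close to it.

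Marker lists were compared in the same libraries. Fibroblast markers summed to 734, 650 and 1068 CPM in Zeb2 WT IR and 494, 488 and 574 CPM in Zeb2 cTg IR, without overlap, and of 13 tested 2 fell (Lum and Col1a2) and 1 rose (Pcolce). Pericyte and smooth muscle markers summed to 608 to 749 CPM and 614 to 826 CPM, with 1 of 11 tested lower (Abcc9) and 1 higher (Acta2). Cardiomyocyte markers summed to 65770 to 71690 CPM and 73580 to 77500 CPM, again without overlap, and 3 of 20 rose. Endothelial markers, of the cell type on which the type B receptor is mainly found, summed to 459 to 529 CPM and 427 to 529 CPM. Of these, 0 of 14 passed in edgeR, with 4 at an unadjusted p under 0.05, 2 called by DESeq2 and 0 by limma-voom. Macrophage markers, at 185 to 252 and 187 to 224 CPM, had 1 of 12 higher (Cd163). The part of these lists in the lower Agtr1a was not tested. Epicardial markers (3 tested), atrial markers (3) and mast cell markers (2) had no gene that passed in this comparison in edgeR, with 1, 2 and 2 genes at an unadjusted p under 0.05, and DESeq2 called 0, 2 and 0 genes of these lists. Atrial markers summed to 10.4 to 12.1 CPM in Zeb2 WT IR and 12.5 to 16.6 CPM in Zeb2 cTg IR. All 3 tested genes of this list had groups without overlap, as had 26.2% of all genes tested. Epicardial markers summed to 4.70 to 7.37 and 3.48 to 7.52 CPM, and mast cell markers to 2.27 to 3.87 and 2.48 to 3.57 CPM. After injury the pericyte and smooth muscle list had 2 of 12 higher and 2 lower, at 946 to 1028 CPM in sham and 818 to 936 CPM in injured hearts. The epicardial, atrial and mast cell lists then had 1 lower, 1 higher and 0 genes called by edgeR, and the mast cell list had 0 genes at an unadjusted p under 0.05 and 0 called by DESeq2. The summed mast cell markers were nevertheless higher in every injured heart, at 5.15 to 6.06 CPM against 3.67 to 4.78 CPM in sham.

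Other genes of the renin-angiotensin system were examined from a list of 21. Renin itself (Ren1), Agtr1b and Ctsg had 0 counts in all 12 libraries, and the type 2 receptor gene Agtr2 had 2 counts in WT IR, 1 in Zeb2 WT IR and 0 elsewhere. After injury 4 of 13 tested genes rose and 1 fell, beside 11.0% higher and 9.74% lower of all genes tested. The median log2 fold change was 0.17 beside 0.01 for all genes. Those that rose were Atp6ap2, the (pro)renin receptor (0.77, SE 0.15), Anpep, an aminopeptidase that breaks down angiotensin III (1.14, SE 0.26), Prcp, a carboxypeptidase that removes the last residue of angiotensin II (0.58, SE 0.18), and Cpa3, a carboxypeptidase of mast cells (1.68, SE 0.36). Cpa3 rested on 58 counts in WT IR against 14 in sham, beside the higher summed mast cell markers given above, whose part in it was not tested. Thop1, which encodes thimet oligopeptidase, fell by 0.49 on the log2 scale (SE 0.12). Each was called in at least 7 of the alternative analyses. Atp6ap2 lost its call without WT sham replicate 2 (adjusted p = 0.0618). Anpep and Cpa3 lost theirs without WT IR replicate 2 (0.0724 and 0.0664) and without WT sham replicates 2 (0.0975 and 0.0824) and 3 (0.0635 and 0.0502). Thop1 lost its call without WT IR replicate 2 (0.0946) and WT sham replicates 1 (0.0679) and 2 (0.11), and Prcp kept its call without WT IR replicate 1 but without no other library (0.0937 to 0.2).

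For the transgene label, 2 of 13 tested genes of that list fell and 0 rose, beside 1.51% lower and 2.14% higher of all genes tested. Mme encodes neprilysin, a peptidase that degrades angiotensin I and endothelin-1 as well as natriuretic peptides. It had 10.6 ± 3.12 CPM in Zeb2 WT IR and 2.70 ± 0.974 CPM in Zeb2 cTg IR, without overlap, and a log2 fold change of -1.95 (SE 0.29; edgeR, adjusted p = 0.0117), larger in size than the value of any member. The call held in all 12 alternative analyses and was lost without Zeb2 WT IR replicate 3 (-1.73, adjusted p = 0.0503). Enpep, the aminopeptidase that converts angiotensin II to angiotensin III, went from 8.66 ± 0.960 to 5.50 ± 0.448 CPM, at -0.66 (SE 0.15; edgeR, adjusted p = 0.0485), and was called in 9 of 12 alternatives. Without a library its call was kept when Zeb2 cTg IR replicate 2 was left out and lost for each of the other 5 (adjusted p from 0.0578 to 0.199). Mas1, a receptor gene of the same system, had 30 counts in Zeb2 WT IR and 69 in Zeb2 cTg IR, without overlap in CPM, and did not pass (1.15, SE 0.32; edgeR, adjusted p = 0.0767).

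Few other endothelin genes were detected. Edn2 had 0 counts throughout, Kel and Ecel1 had 1 count each, and Edn3 had 24 and 31 counts in WT sham and WT IR and 42 and 90 counts in Zeb2 WT IR and Zeb2 cTg IR. Nos3, the endothelial nitric oxide synthase that the type B receptor activates, fell after injury by 0.36 on the log2 scale (SE 0.10; edgeR, adjusted p = 0.0374), in 7 of 12 alternatives. It kept its call without WT IR replicate 1 and lost it without each of the other 5 libraries (adjusted p from 0.0526 to 0.137). Ece2 had a log2 fold change of 0.70 (SE 0.24) that did not pass (edgeR, adjusted p = 0.0661). None of 3 tested genes passed for the transgene label in edgeR, with 0 at an unadjusted p under 0.05 and 0 in DESeq2. Of the mineralocorticoid genes, Cyp11b1 and Cyp11b2, which make corticosteroids, had 0 counts in all libraries. The receptor gene Nr3c2 stood at 17.1 ± 1.42 and 15.8 ± 1.30 CPM in sham and injured hearts, and Fkbp5, a corticosteroid target, rose (0.78, SE 0.16; edgeR, adjusted p = 0.013), except without WT sham replicate 2 (adjusted p = 0.0751). For the transgene label 0 of 4 passed in edgeR, 0 had an unadjusted p under 0.05 and 0 passed in DESeq2.

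Downstream of the receptors, 25 genes of Gq signalling and receptor control were listed. After injury 4 of 24 tested rose and 3 fell, beside 11.0% higher and 9.74% lower of all genes tested. The median log2 fold change was 0.08. Grk5, a kinase that desensitizes receptors, rose (0.40, SE 0.09), as did Arrb2, a β-arrestin (0.59, SE 0.16), and Prkcd, a protein kinase C (0.62, SE 0.17). Grk2, another receptor kinase, fell by 0.41 on the log2 scale (SE 0.10), the G protein gene Gna12 also by 0.41 (SE 0.10) and the protein kinase C gene Prkce by 0.37 (SE 0.11). Of the 12 alternatives, Gna12 passed in 8, Prkce in 9, Grk2 and Grk5 in 10, Arrb2 in 11 and Prkcd in 12. All 6 kept their calls without WT IR replicate 1. Prkcd (adjusted p = 0.0616), Arrb2 (0.067) and Prkce (0.097) lost theirs without WT IR replicate 3, while Grk2, Grk5 and Gna12 kept their calls. Without WT IR replicate 2 (adjusted p from 0.0579 to 0.15), WT sham replicate 1 (0.0538 to 0.141) or WT sham replicate 2 (0.0653 to 0.137), all 6 lost them, and without WT sham replicate 3 just Grk2 kept its call (0.048). The Gα genes Gnaq and Gna11 did not pass, at 0.07 (SE 0.07) and -0.24 (SE 0.08). For the transgene label 0 of 25 passed in edgeR, with 5 at an unadjusted p under 0.05, 0 in DESeq2 and 0 in limma-voom.

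Genes known to be induced by angiotensin II or endothelin-1 were followed as a last group of 24. After injury 17 of 23 tested rose and 1 fell, beside 11.0% higher and 9.74% lower of all genes tested. The median log2 fold change was 1.67 beside 0.01 for all genes. Myh7, the β-myosin heavy chain (4.02, SE 0.29), Nppa, atrial natriuretic peptide (3.57, SE 0.34), and Spp1, osteopontin (5.10, SE 0.57), had the smallest p-values, and Jun fell by 0.60 on the log2 scale (SE 0.07). Many genes of the list are also made by fibroblasts, whose markers rose in the same hearts, and the part of this in the rise was not tested. For the transgene label 3 of 22 rose and 3 fell, beside 2.14% higher and 1.51% lower of all genes tested. Nppa (2.43, SE 0.42), Nppb, brain natriuretic peptide (1.30, SE 0.26), and Ankrd1, a stress-induced gene of cardiomyocytes (1.27, SE 0.29), were higher, beside higher summed atrial and cardiomyocyte markers, whereas Nox4, an NADPH oxidase (-2.14, SE 0.29), the collagen gene Col3a1 (-1.88, SE 0.34) and Acta1, skeletal α-actin (-2.29, SE 0.53), were lower (edgeR, adjusted p from 0.00827 to 0.0496). Of the 12 alternatives, Ankrd1 passed in 7 and Acta1 in 10, and Nppa, Nppb, Col3a1 and Nox4 passed in all 12. Nox4 kept its call without each of the 6 libraries, whereas the other 5 lost theirs without 2 to 4 of them, and all 5 without Zeb2 cTg IR replicate 3 (0.056 to 0.115). The part of the atrial and cardiomyocyte markers in the higher genes was not tested. Summed fibroblast markers were lower in the same libraries, and their part in the lower genes was not tested either. The list did not move one way, and its median log2 fold change was -0.42.

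The genes whose profiles lay closest to each member were found over the 12 libraries, on log2(CPM + 0.5) centred within each table, as the root mean square difference among 11782 protein-coding genes. For Ace these were Gli2 (0.0992) and Apcdd1 (0.120), against a median of 0.410 for all genes. For Agtr1a they were Grb14 (0.0994) and Prlr (0.121), the prolactin receptor, against a median of 0.404. Grb14 and Prlr had log2 fold changes of -0.88 and -0.86 for the transgene label. Ednrb lay closest to Hltf (0.0615) and Nucks1 (0.0685), and Edn1 to Slc7a8 (0.0527) and Tnfrsf26 (0.0687). Ednra lay closest to Vps13c (0.0861) and Churc1 (0.0881), Agtrap to Gtf2i (0.0391) and Cux1 (0.0504), Ece1 to Anapc2 (0.0537) and Als2cl (0.0693), and Agt to Tyw3 (0.127) and Intu (0.145). These distances are descriptions, and small ones are easier to reach for genes that vary little, such as Agtrap.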

How the data were processed

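RNA of 12 mouse hearts, 3 per group, was sequenced by the authors as stranded single-end libraries, aligned to mm10 with STAR 2.4.2a and counted per gene with HTSeq 0.6.1, as the submitters' processing notes and methods state. The authors deposited raw whole-number counts in 2 tables of 6 libraries each, without normalization. The methods name a total RNA kit and the records of the samples an mRNA kit. All per-sample columns were used. No 2 libraries of a group agreed within sampling noise (chi-square per degree of freedom 6.9 to 74.1).

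Each table was fitted on its own in R 4.3.3 with edgeR 4.0.16: TMM, filterByExpr (minimum count 10, total 15), quasi-likelihood test, p adjusted after Benjamini and Hochberg across every gene tested, threshold 0.05. CPM use TMM-scaled library sizes. Symbols, positions, lengths and GC content come from GENCODE M21 (GRCm38) and promoters from RefSeq. The alternatives, 12 for each comparison besides leaving out each of 6 libraries, were other size factors (RLE, upper quartile, cardiomyocyte markers), no mitochondrial genes, no filter or 10 counts in every library, DESeq2 1.42.0, limma-voom 3.58.1, the replicate number as a block, a GC correction (loess, span 0.5), the last 2 together, and all 12 libraries in 1 fit. The mice are separate animals.

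The members and gene lists were chosen with earlier results of these data known. The text names all members, Zeb2 as a check, genes of the lists that passed or had few counts (with more than 6 passing, the 3 higher and 3 lower with the smallest p), and the 2 genes nearest to each member. The alternatives for list genes were added after the data had been seen. Other genes of the lists are not named, and 1 further gene is not reported here. Figures were drawn with matplotlib.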

Additional observations from a re-analysis of the deposited data

How the results depend on the processing

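After injury, 84 of 96 values of the 8 members under the alternatives that kept all libraries had the direction and the side of the threshold of the main analysis, and for the transgene label 87 of 95 did; Agt was not tested there with 10 counts in every library. Members called after injury numbered 2, and 3 with no filter and with cardiomyocyte markers as size factors, but 1 with DESeq2, with the GC correction, with it and the replicate block, and with all 12 libraries in the model, where 1424 in place of 2859 genes were called. For the transgene label 474 genes were called, against 717 with cardiomyocyte markers as size factors, 1553 with no filter, 1027 in DESeq2, 836 with the GC correction, 744 with it and the replicate block, and 1932 with all 12 libraries; the member called (1) became 0 with the GC correction and the replicate block and 2 with all 12 libraries. Cardiomyocyte markers as size factors also made 2995 of 3215 calls after injury higher, where the main analysis had 1519 of 2859, and shifted the median of all genes to 0.30 after injury and -0.15 for the transgene label. Signs turned after injury for Agtr1a (0.0844) and Agtrap (0.0776) with cardiomyocyte markers and Ednra (-0.0271 with the GC correction, -0.0306 also with the replicate block), and for the transgene label for Ednra (-0.0241) and Ece1 (-0.0473) with cardiomyocyte markers, Agtrap (-0.00084, GC correction) and Ece1 (-0.15 with the GC correction, -0.155 also with the replicate block); none of these values passed the test. The causes were not tested.

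Same-numbered hearts were different mice. Their deviations from the group means correlated at -0.03, 0.01 and -0.01 in the first table and 0.13, 0.26 and -0.04 in the second. Whether a shared number marks a shared litter or batch was not tested. With the replicate block, 2595 and 1813 genes and 2 members in each comparison were called: Ednrb lost its call after injury (0.30, adjusted p = 0.0529), Edn1 gained one (adjusted p = 0.0419), and Ednrb gained one for the transgene label (-0.47, adjusted p = 0.0348). With the GC correction and the replicate block together, Agtr1a missed the threshold (-0.72, adjusted p = 0.0511).

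Leaving out 1 library gave 421 (without WT sham replicate 2) to 4980 (without WT IR replicate 1) genes and 1 to 6 members after injury. For the transgene label it gave 98 (without Zeb2 WT IR replicate 3) to 2419 (without Zeb2 cTg IR replicate 2) genes and 0 to 2 members. Ace ranged there from -0.247 to 0.0898 and Ece1 from -0.0549 to 0.261, both across 0 and neither called. With the longest transcript as the length, 3 of 8 members kept their place in the order of mean levels over all 12 libraries. That order joins both tables and differs from the orders of the single groups. Agt, with 6 to 34 counts per library, is limited by depth.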
